A study of Mus musculus with 10 samples.

Results

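The 10 genes described here are secretory genes of the intestinal epithelium, read in RNA sequencing libraries of macrophages. They are Muc2, Tff3, Agr2, Fcgbp, Zg16 and Spink4, which are made chiefly by goblet cells, and Defa24, Reg3g, Reg3b and Itln1, which are made chiefly or in part by Paneth cells. They were chosen by name, as rows of the deposited table that carry these symbols, and all 10 were found among its 17279 genes. All 10 passed the filter on low counts, which kept 16949 genes. CX3CR1-GFP+ macrophages of the lamina propria had been sorted by flow cytometry from the whole small intestine of C57BL6/J mice at 24 h after surgery. The 5 sham libraries came from sham-operated animals and the 5 pMCAO libraries from animals with permanent middle cerebral artery occlusion, a model of ischaemic stroke. The study asks how stroke alters the transcriptome of these macrophages, and none of the 10 genes is known as a macrophage gene. Replicate 1 of each group carries a name that marks it as a pool, and the labels used here name no reporter allele for the GFP sort and give neither age nor sex.

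Goblet cells secrete the mucus of the gut. Muc2 is the polymer that forms the gel, Agr2 is a disulphide isomerase of the endoplasmic reticulum that mucin folding needs, Fcgbp, Zg16 and the trefoil peptide Tff3 are proteins of the mucus, and Spink4 is a small protein with the fold of a protease inhibitor. Paneth cells sit at the base of the crypts of the small intestine and release antimicrobial proteins, among them the alpha-defensins such as Defa24 and the lectin Itln1. Reg3g and Reg3b are antibacterial C-type lectins that Paneth cells share with enterocytes and that are known to be induced by microbes.

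Muc2 lies at chr7:141690340-141754693, Fcgbp at chr7:28071236-28120862, Agr2 at chr12:35992907-36004087 and Spink4 at chr4:40920052-40931395, all on the plus strand (GRCm38, GENCODE M21). Zg16 lies at chr7:127050156-127087328, Tff3 at chr17:31125306-31129646 and Itln1 at chr1:171518122-171535294, all on the minus strand. Several of these genes have close relatives, so the coding sequences are shown to make clear which members a read can tell apart. Defa24 lies at chr8:21734494-21735471 on the plus strand, in a region rich in alpha-defensin genes. Of the listed relatives compared, Defa17 and Defa3 were the nearest, each with 95.7% of the 279 coding bases identical. The first 120 coding bases of Defa24 and Defa17 follow, with the 3 bases that differ in capitals.
Defa24: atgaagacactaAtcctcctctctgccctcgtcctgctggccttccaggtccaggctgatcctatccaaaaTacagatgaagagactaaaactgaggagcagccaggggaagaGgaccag
Defa17: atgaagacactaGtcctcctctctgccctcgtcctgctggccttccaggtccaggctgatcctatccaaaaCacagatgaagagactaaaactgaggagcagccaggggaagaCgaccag

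The Reg3 genes are less alike. Reg3g lies at chr6:78466269-78468872 on the minus strand and Reg3b at chr6:78370657-78373466 on the plus strand, and 76.0% of their aligned coding positions are identical. The first 90 coding bases of each are shown because the levels of both genes moved together over libraries, with the 18 bases that differ in capitals.
Reg3g: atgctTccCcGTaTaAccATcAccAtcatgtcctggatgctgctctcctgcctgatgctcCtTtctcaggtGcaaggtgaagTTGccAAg
Reg3b: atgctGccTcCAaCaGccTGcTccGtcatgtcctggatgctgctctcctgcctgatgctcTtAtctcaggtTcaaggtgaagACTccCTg

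Every stretch of 100 bases, the read length, in the chosen transcript of each member was looked for in the transcripts of all other genes. No such stretch was shared for 9 members. In Fcgbp 97.9% were unique and the rest occurred in 9530053A07Rik. Defa24 reads that span few of its differences from Defa17 or Defa3 may still have been assigned to the wrong gene, and its level is uncertain in that respect.

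Markers of macrophages and of other cell types were read in the same libraries. The summed level of 15 macrophage markers was 17030 to 32549 CPM (the gene's counts relative to the library's size, scaled by TMM) in sham and 20461 to 32611 CPM after pMCAO. Cx3cr1, the gene behind the sort, was at 98.8 to 224 CPM in sham and 108 to 215 CPM after pMCAO, and the lowest marker in any library was Fcgr1 at 65.6 CPM. The summed level of 17 markers shared by all epithelial cells was 581 to 952 CPM in sham and 116 to 851 CPM after pMCAO, lowest in pMCAO 4 and 5. The summed level of 9 B and plasma cell markers was highest in replicate 2 of both groups, at 146987 and 169699 CPM. It exceeded the summed macrophage markers in every library except sham 4, pMCAO 3 and pMCAO 4. In sham 1, for example, it was 41565 CPM against 27725 CPM for the macrophage markers. Total counts per library were 18894151 to 60665972 in sham and 6430643 to 28672285 after pMCAO. Xist stood at 1756 CPM in sham 5 and 4461 CPM in pMCAO 4, against at most 4.92 CPM in the other 8 libraries. In such bulk libraries, fewer cells of a type and less RNA per cell cannot be told apart, nor can RNA from whole epithelial cells and free RNA.

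All 10 genes were read in every library, with the lowest count at 15, for Itln1 in pMCAO 4. Compared per exon length as TPM, which also scales each library to the same sum, the median level over the 10 libraries was highest for Tff3 (384 TPM), Zg16 (371 TPM) and Defa24 (301 TPM). Reg3b (177 TPM), Spink4 (116 TPM), Agr2 (78.7 TPM) and Itln1 (68.2 TPM) followed. The lowest medians were those of Muc2 (36.1 TPM), Fcgbp (27.8 TPM) and Reg3g (20.5 TPM). Each gene's range over libraries overlapped that of its neighbour in this order. The TPM of Muc2 rests on an exon length of 7127 bases, and the longest transcript found for it in this annotation has 2926 bases, short for a polymeric mucin, so its TPM is uncertain. For Reg3g the exon length was 2114 bases and the longest transcript had 771 bases. In Zg16, Agr2, Reg3b, Fcgbp and Spink4 the exon length also exceeded the longest transcript. The order of the members by TPM is uncertain for the same reason.

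The members differed widely between libraries. The highest library was at least 10 times the lowest in 10 of 10 members, against 5.65% of the 9046 genes with a mean of at least 10 CPM. The ratio of highest to lowest ranged from 14.4 for Fcgbp to 122 for Reg3b. Within the sham group this ratio was 2.24 (Muc2) to 6.01 (Zg16) for the goblet genes and 18.8 (Defa24) to 43.2 (Reg3b) for the Paneth genes. Within the pMCAO group it was 14.4 (Fcgbp) to 70.9 (Zg16) for the goblet genes and 15.1 (Reg3g) to 103 (Defa24) for the Paneth genes. The sham and pMCAO ranges overlapped in all 10 members, and over all genes tested only 0.985% had groups that did not overlap.

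Among the goblet genes, the mucin Muc2 stood at 219, 97.9, 172, 149 and 149 CPM in sham 1 to 5. After pMCAO it stood at 104, 197, 698, 33.1 and 41.6 CPM in replicates 1 to 5. The sham libraries lay close together, while pMCAO 3 was above all of them and pMCAO 4 and 5 were below all of them. As means this gave 157 ± 44.0 CPM in sham and 215 ± 278 CPM after pMCAO (SD, n = 5 each).

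Fcgbp, an abundant protein of the mucus, was also highest in pMCAO 3. It was at 301, 126, 221, 137 and 183 CPM in sham and at 77.8, 255, 719, 56.7 and 49.96 CPM after pMCAO. Tff3, the trefoil peptide, was at 187, 63.7, 109, 186 and 97.4 CPM in sham and at 46.8, 121, 522, 21.7 and 30.2 CPM after pMCAO. In both genes pMCAO 3 was the highest library of all, and pMCAO 1, 4 and 5 were below every sham library.

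Zg16, a lectin that binds the walls of Gram-positive bacteria, had the widest range of the goblet genes. It was at 419, 86.0, 236, 517 and 233 CPM in sham. After pMCAO it was at 79.9, 338, 1608, 91.1 and 22.7 CPM. Here pMCAO 3 again stood above every other library, but pMCAO 4 was slightly above sham 2. The ratio of Zg16 to Muc2 counts ranged from 0.546 in pMCAO 5 to 3.48 in sham 4, so the goblet genes did not hold a fixed ratio.

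Agr2, the folding enzyme, was at 145, 67.9, 61.8, 28.1 and 94.3 CPM in sham and at 35.2, 71.0, 146, 6.89 and 3.30 CPM after pMCAO. Spink4 was at 49.1, 23.4, 43.2, 20.1 and 45.5 CPM in sham and at 27.1, 35.4, 65.7, 2.38 and 11.6 CPM after pMCAO. For Agr2, pMCAO 3 and sham 1 were level, and for both genes pMCAO 4 and 5 were the lowest libraries.

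**Figure D1:**
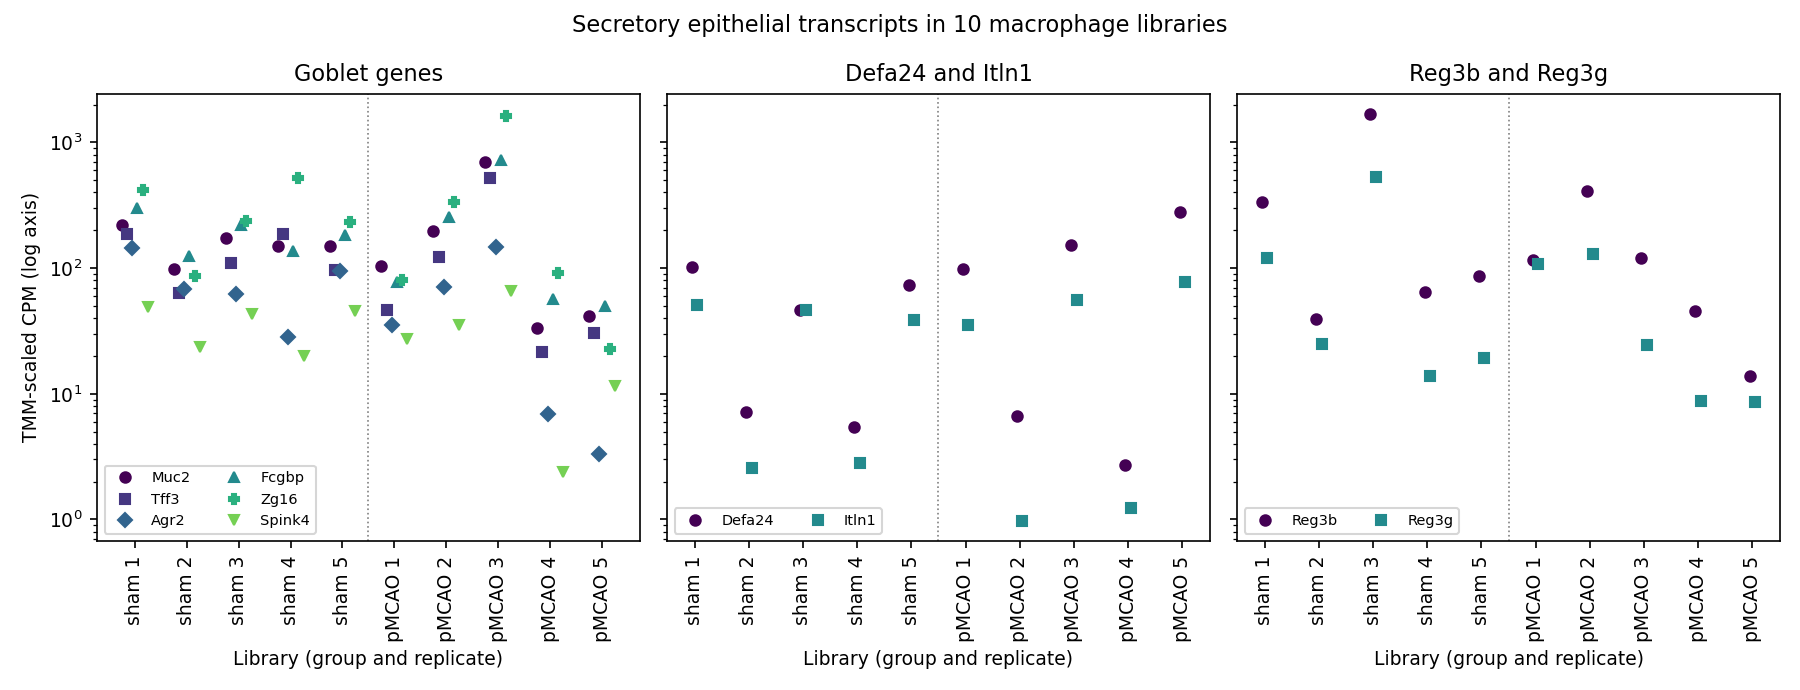
Level of each of the 10 genes in each library, as TMM-scaled CPM on a log axis, with goblet genes on the left, Defa24 and Itln1 in the middle and Reg3b and Reg3g on the right. Each point is 1 library, and the dotted line parts the 5 sham from the 5 pMCAO libraries. The goblet genes peak in pMCAO 3 (Muc2 at 698 CPM), Defa24 and Itln1 are under 10 CPM in replicates 2 and 4 of both groups, and the Reg3 genes peak in sham 3 (Reg3b at 1686 CPM).

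The Paneth genes followed other orders. The alpha-defensin Defa24 was at 102, 7.15, 46.3, 5.41 and 73.8 CPM in sham. After pMCAO it was at 97.6, 6.61, 152, 2.71 and 278 CPM. The libraries therefore fell into 2 separate clusters, with replicates 1, 3 and 5 of both groups at 46.3 CPM or more and replicates 2 and 4 of both groups at 7.15 CPM or less.

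Itln1, the lectin, divided the libraries in the same way. It was at 50.8, 2.55, 46.5, 2.83 and 38.4 CPM in sham and at 35.0, 0.98, 56.1, 1.23 and 77.7 CPM after pMCAO. The same 6 libraries were at 35.0 CPM or more and the same 4 at 2.83 CPM or less. Defa24 and Itln1 were singled out as a pair after their values were seen.

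The split of Defa24 and Itln1 crossed the groups, since each group had 3 high and 2 low libraries. The summed level of 14 other alpha-defensin genes had the same shape, at 480.5, 9.51, 189, 23.0 and 267 CPM in sham and at 511, 15.6, 610.0 (replicate 3), 14.9 and 1006 CPM after pMCAO. The pan-epithelial markers did not separate in this way, since their sum was 851 CPM in pMCAO 2, where Defa24 was low, and 165 CPM in pMCAO 5, where Defa24 was highest. B and plasma cell markers were high in replicate 2 of both groups but low in sham 4 (5923 CPM), in pMCAO 4 (6632 CPM) and in pMCAO 3 (9309 CPM). The part of other cell types in this split was not tested.

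Reg3g was at 119, 24.8, 530.0, 13.8 and 19.4 CPM in sham and at 107, 129, 24.5, 8.78 and 8.54 CPM after pMCAO. Reg3b was at 334, 39.1, 1686, 64.8 and 86.7 CPM in sham and at 115, 412, 120.5, 45.6 and 13.8 CPM after pMCAO. Sham 3 was the highest library for both genes, and pMCAO 5, the highest for Defa24, was the lowest for both. The ratio of Reg3b to Reg3g counts ranged from 1.08 in pMCAO 1 to 5.196 in pMCAO 4.

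None of the 10 members differed between pMCAO and sham in edgeR's quasi-likelihood test with Benjamini-Hochberg adjustment over all genes. Calling a gene took an FDR of 0.05 or less together with a log2 fold change of 1 or more in either direction, and 0 of 10 members and 0% of the 16949 genes tested were called. At an unadjusted p under 0.05, 0 of 10 members and 4.71% of all genes passed. DESeq2 called 0 members and 0.0118% of all genes, and limma-voom called 0 members and 0% of all genes. The members' FDR in edgeR ranged from 0.922 to 0.983.

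The fitted log2 fold changes were above 0 in 6 of 10 members (49.4% of all genes) and below 0 in 4 (50.6%). Muc2 had a log2 fold change of 0.45 (SE 0.68), Tff3 of 0.21 (SE 0.75), Fcgbp of 0.26 (SE 0.66) and Zg16 of 0.52 (SE 0.91). Agr2 had −0.60 (SE 0.79) and Spink4 −0.35 (SE 0.61). Among the Paneth genes, Defa24 had 1.20 (SE 1.06, edgeR unadjusted p = 0.281) and Itln1 0.28 (SE 1.09). Reg3g had −1.35 (SE 1.06, edgeR unadjusted p = 0.227) and Reg3b −1.64 (SE 1.05, edgeR unadjusted p = 0.144). The difference in mean log2 CPM had the other sign for Muc2 (−0.41), Tff3 (−0.72), Fcgbp (−0.47), Zg16 (−0.70) and Itln1 (−0.35). For the other members it had the same sign as in edgeR.

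The sign turned when 1 library was left out in 7 of 10 members, and kept for Agr2, Spink4 and Defa24. Without pMCAO 3 the log2 fold changes of the mucus genes turned to −0.75 for Muc2, −1.23 for Tff3, −0.82 for Fcgbp and −1.17 for Zg16. Without sham 3, Reg3g turned to 0.32 and Reg3b to 0.11, and without pMCAO 5, Defa24 fell to 0.46 and Itln1 turned to −0.29. Agr2 without pMCAO 3 was at −1.46 and Spink4 at −0.93. In limma-voom, with all libraries, Muc2 was at −0.46, Tff3 at −0.76, Fcgbp at −0.49, Zg16 at −0.74 and Itln1 at −0.88. No member was called in any of these fits.

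**Figure D2:**
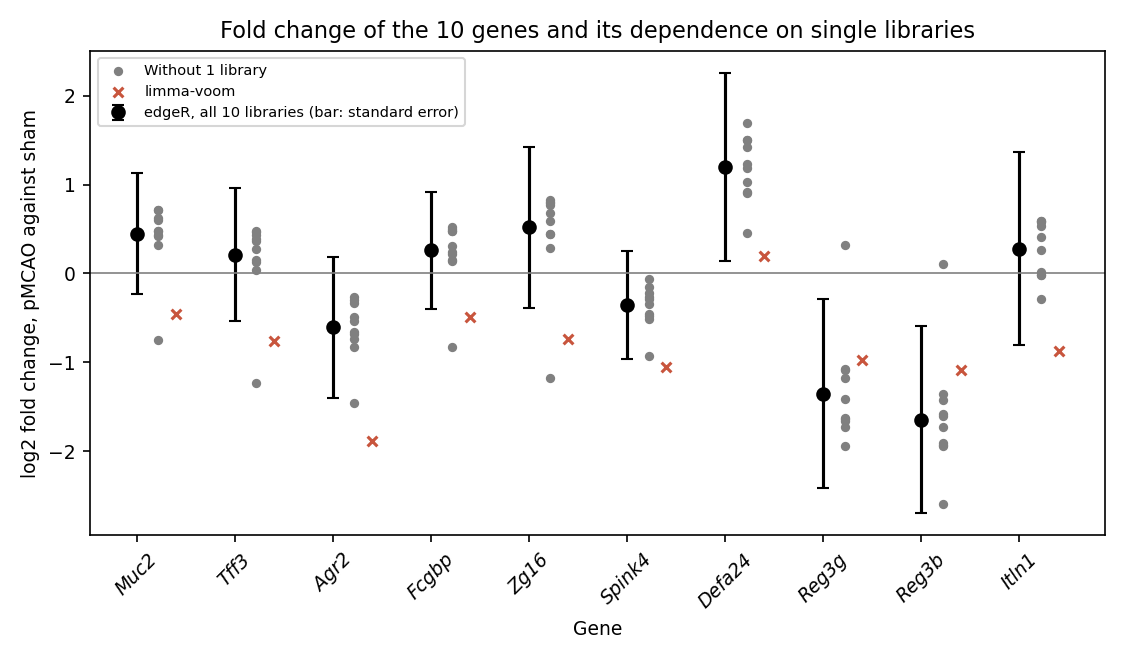
log2 fold change of pMCAO against sham for the 10 genes. Black points with bars are edgeR estimates from all 10 libraries with their standard errors, grey points leave out 1 library each, and crosses are limma-voom. For Muc2, Tff3, Fcgbp and Zg16 1 grey point, without pMCAO 3, lies below 0 while the black point is above it, and for Reg3g and Reg3b the fit without sham 3 lies above 0.

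As a score, the mean log2 CPM over the 6 goblet genes was 6.81 ± 0.50 in sham and 6.02 ± 1.86 after pMCAO (SD, n = 5 each). The mean over the 4 Paneth genes was 5.43 ± 1.93 in sham and 5.01 ± 1.497 after pMCAO. The SD of the goblet score was larger after pMCAO, while that of the Paneth score was large in both groups, and the difference in spread was not tested. Both differences, −0.79 for goblet and −0.42 for Paneth genes, were smaller than the larger SD beside them. The goblet difference had the other sign than the edgeR log2 fold changes of Muc2, Tff3, Fcgbp and Zg16. No p is given for a score over chosen genes.

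Set against each other in the same library, the goblet score exceeded the Paneth score by 0.61, 2.57, −0.84, 3.22 and 1.33 log2 units in sham 1 to 5. The scores are not scaled by exon length, which was 419 bases for Defa24 and 10497 bases for Fcgbp. The sign of this excess therefore depends on gene length and does not show which RNA was more abundant. Its differences between libraries do not depend on length. After pMCAO the excess was −0.54, 2.41, 2.49, 1.69 and −1.03. The sham mean was 1.38 ± 1.60 and the pMCAO mean 1.01 ± 1.67 (SD, n = 5 each), and the groups overlapped. The balance between single genes varied more. Defa24 counts were 6.70 times those of Muc2 in pMCAO 5 and 0.034 times those of Muc2 in pMCAO 2. The Paneth score joins genes with unlike patterns. Over Defa24 and Itln1 alone the goblet excess was 2.50 ± 1.69 in sham and 1.63 ± 3.28 after pMCAO. Over the Reg3 genes it was 0.26 ± 1.97 and 0.38 ± 1.57. These had the same sign in sham 2, 4 and 5 and pMCAO 1 and 3, and opposite signs elsewhere, with a zero point that again depends on gene length. In sham 3 they were 1.34 and −3.01, and in pMCAO 5 −2.91 and 0.84.

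**Figure D3:**
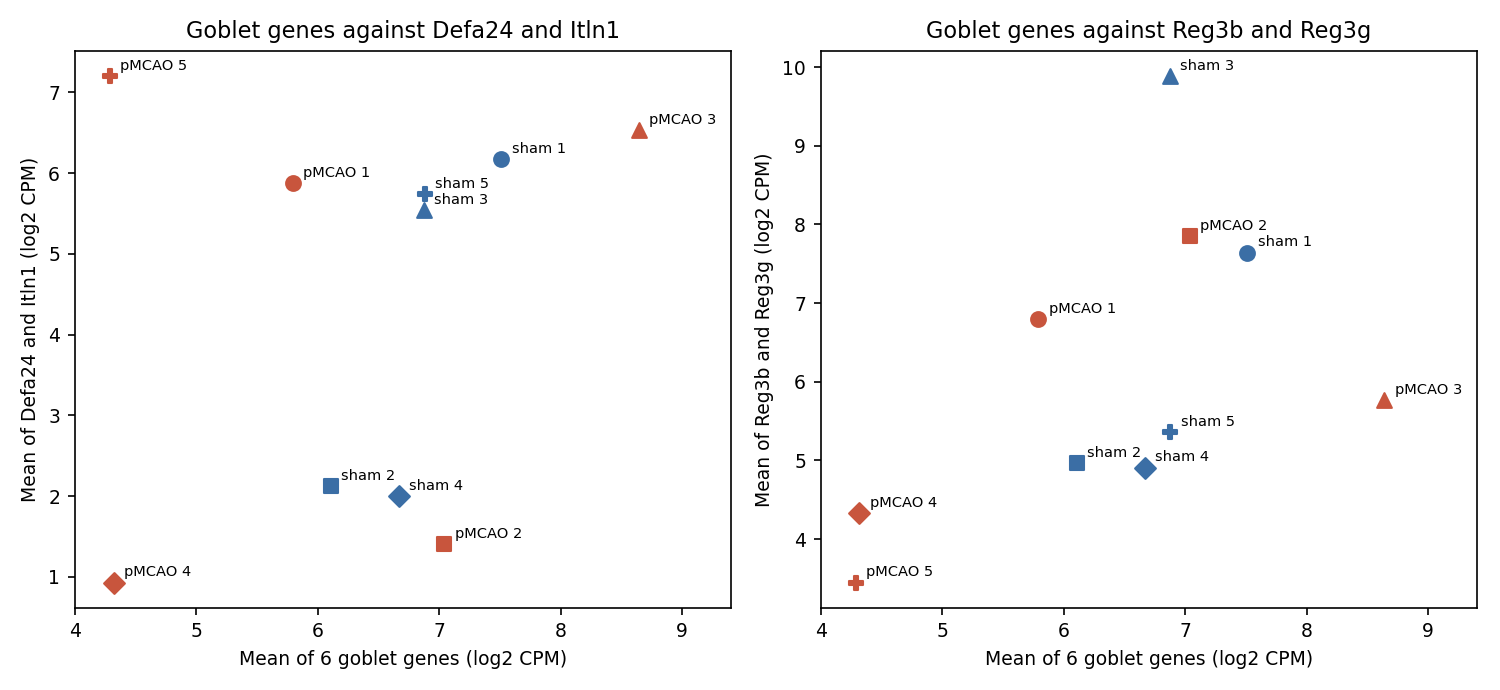
Mean log2 CPM of the 6 goblet genes (horizontal) against the mean of Defa24 and Itln1 (left, vertical) or of Reg3b and Reg3g (right, vertical), 1 point a library, sham in blue and pMCAO in red, with marker shape for the replicate number. On the left the libraries lie in an upper cluster of 6 and a lower cluster of 4, each with both groups in it. On the right sham 3 stands highest for the Reg3 genes and pMCAO 3 farthest to the right for the goblet genes.

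Whether the genes rose and fell together was measured by the correlation of log2 CPM over the 10 libraries for all 45 pairs, with Benjamini-Hochberg adjustment over the 45. The goblet genes varied together. Pearson's r over their 15 pairs ranged from 0.59 to 0.96, and 14 of 15 pairs had an adjusted permutation p of at most 0.05. Within the groups, as deviations from each group's mean, the median r was 0.88, and without the 2 libraries farthest from the median of the first gene r ranged from 0.46 to 0.98.

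Muc2 and Fcgbp were the closest pair (r = 0.96, Spearman's rho = 0.98, n = 10, permutation p = 1e-05, the smallest that the resamples can give, adjusted p = 0.00045). Muc2 and Tff3 followed (r = 0.96, rho = 0.92, n = 10, adjusted permutation p = 0.00045). Zg16 and Spink4 were the pair that did not pass (r = 0.59, rho = 0.59, n = 10, permutation p = 0.0742, adjusted p = 0.176). Sham 4, for example, was the second highest library for Zg16 and the third lowest for Spink4.

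Reg3g and Reg3b also varied together (r = 0.92, rho = 0.85, n = 10, permutation p = 0.00014, adjusted p = 0.0017). Without the 2 libraries farthest from the median their r was 0.80, and within the groups it was 0.92. The goblet and Reg3 genes were less close. Over their 12 pairs r ranged from 0.25 for Zg16 with Reg3g to 0.62 for Agr2 with Reg3b, and 0 of 12 passed by Pearson's r (smallest adjusted permutation p = 0.153). By Spearman's rho, Muc2 with Reg3b (rho = 0.81, adjusted permutation p = 0.0244) and Fcgbp with Reg3b (rho = 0.78, adjusted permutation p = 0.031) did pass.

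**Figure D4:**
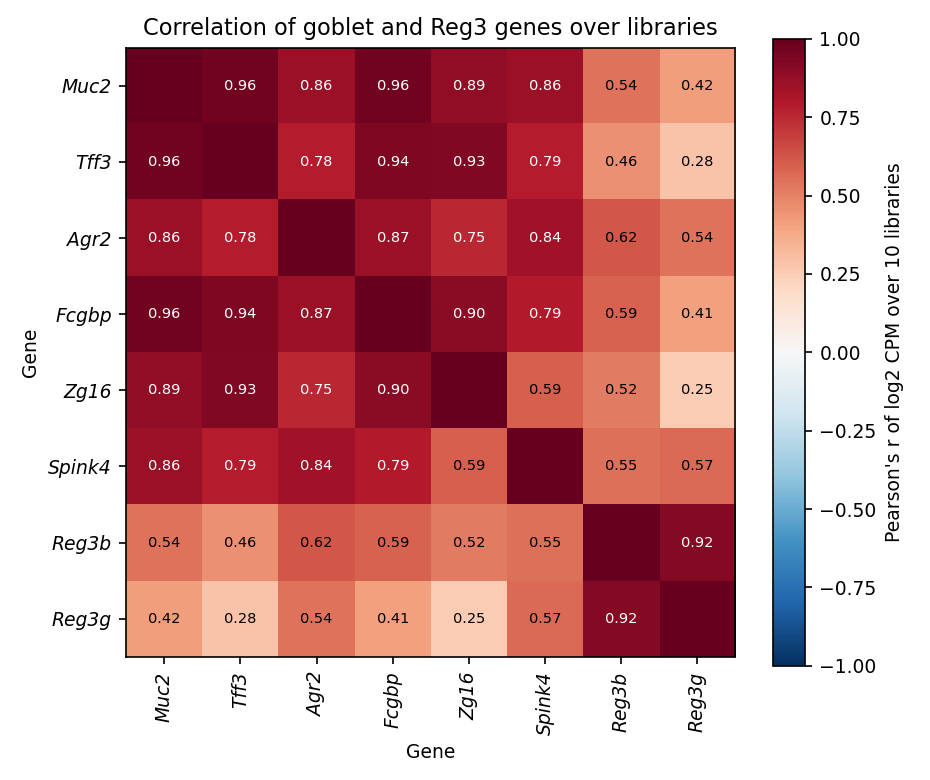
Pearson's r of log2 CPM over 10 libraries for each pair of the 6 goblet and 2 Reg3 genes, on a colour scale from −1 to 1 with the value in each cell. The goblet block and the Reg3 pair hold the high values, up to 0.96 and 0.92, and the cells between the blocks lie between 0.25 and 0.62. Defa24 and Itln1 are left out because their libraries form separate clusters.

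For the 17 pairs that hold Defa24 or Itln1 no r over all libraries is given, because the libraries form 2 clusters. Within the 6 libraries with more than 10 CPM of both, Defa24 and Itln1 had r = 0.74 (rho = 0.77, two-sided exact permutation p = 0.083, adjusted p = 0.472 over 17 pairs). Those 6 libraries were picked by the levels of these 2 genes, so every r and p within them only describes this subset. In those libraries Defa24 had a negative r with each goblet gene, from −0.60 with Agr2 to −0.19 with Tff3, and none of these passed (smallest exact permutation p = 0.229, adjusted p = 0.70). Without the 2 libraries farthest from the median of the goblet gene, r with Defa24 turned to 0.95 for Agr2 and 0.91 for Spink4. It stayed below 0 for Muc2 (−0.15), Tff3 (−0.08), Fcgbp (−0.26) and Zg16 (−0.13). Each of these values covers only 4 libraries, too few to settle the sign. Defa24 with Reg3b had r = −0.86 (rho = −0.49, exact permutation p = 0.044, adjusted p = 0.472). Without the 2 libraries farthest from the median of Defa24 that r was 0.19, again over only 4 libraries, so its size depended on the libraries left out. The 4 low libraries are too few for a correlation.

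The other markers of each cell type, none of them members, showed which genes the members resembled. Of 25 further goblet genes 22 were tested, and 0 were called in either direction. Their log2 fold changes were above 0 in 13 and below 0 in 9, with a median of 0.23 against −0.01 over all genes tested. Without pMCAO 3, the library highest in Muc2, 7 were above 0 and 15 below (median −0.42), and limma-voom with all libraries gave the same split (median −0.40). With the replicate block 10 were above 0 and 12 below (median −0.15). In edgeR with all libraries they ranged from −1.83 for Spdef, a transcription factor of secretory cells, to 1.86 for Ern2, the stress sensor of mucous cells. Clca1, a mucus metalloprotease, had the closest pattern to Muc2 in this list (r = 0.94) and stood at 299.9 CPM in pMCAO 3 and 9.72 CPM in pMCAO 5.

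Of 31 further Paneth genes 21 were tested, with 0 called in either direction, 18 log2 fold changes above 0, 3 below 0 and a median of 0.91. Without pMCAO 5, the library highest in Defa24, 14 were above 0 and 7 below (median 0.22), without sham 1 the median was 1.78, and limma-voom gave 11 above 0 and 10 below (median 0.09). In edgeR with all libraries they ranged from −0.97 for Sox9, a transcription factor of crypt cells, to 1.78 for the defensin gene Gm14851. Of the 14 other alpha-defensin genes, 14 had values above 0, with a median of 1.07. In limma-voom 8 of these 14 were above 0 with a median of 0.12, and without pMCAO 5 11 of 14 were above 0 with a median of 0.59. Lyz1, the lysozyme of Paneth cells, was at 257, 95.5, 139, 96.9 and 261 CPM in sham and at 233, 60.97, 557, 89.0 and 379 CPM after pMCAO. For Lyz1 too the 4 libraries low in Defa24 were the lowest.

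The 17 pan-epithelial markers had log2 fold changes below 0 in all 17 cases, from −1.18 for Cdx2 to −0.08 for Phgr1, with a median of −0.71 and 0 called. Without pMCAO 4 this was 14 of 17 with a median of −0.46, and without pMCAO 5 it was 14 of 17 with a median of −0.52, while limma-voom gave 17 of 17 with a median of −1.32. The 20 enterocyte genes had a median of 0.11, with 0 called, and ranged from −2.66 for Reg1 to 1.17 for Fabp1. Their median turned to −0.41 without pMCAO 2 (4 of 20 above 0), to −0.13 without pMCAO 3, to −0.04 without sham 2, to −0.35 in limma-voom and to −0.44 with the replicate block. The 15 macrophage markers had a median of 0.05, with 0 called, from −0.33 for Aif1 to 0.54 for Mertk, and the median was below 0 without sham 2 (−0.05), sham 5 (−0.14), pMCAO 3 (−0.15) or pMCAO 4 (−0.01). Of 7 stem and progenitor, 7 enteroendocrine and tuft cell, 9 B and plasma cell and 7 T cell genes tested, 0 were called.

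The pattern of Muc2 was close to that of epithelial genes at large. Over 10 libraries its median r was 0.82 with the 17 pan-epithelial markers, of which 10 exceeded 0.8, against 1.56% of all genes. Its median r was 0.73 with enterocyte genes, 0.43 with other goblet genes and 0.23 with the 14 other alpha-defensins. Among all genes tested, Stk25 (0.96), 4931428F04Rik (0.95), Snx7 (0.94) and Idh3g (0.94) were among the 5 with the highest r to Muc2. Reg3g had a median r of 0.56 with pan-epithelial markers, 0.55 with enterocyte genes and 0.15 with other Paneth genes. Its 5 closest genes were Sco1 (0.93), Mfsd5 (0.92), Frk (0.90), Ppp1r3c (0.89) and Gm7204 (0.89). These values are descriptions over shared libraries, and with 16939 other genes some high values arise in any set of 10 libraries.

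Defa24 resembled part of the other Paneth genes tested. Among the 5 genes ranked nearest to it over 10 libraries were the alpha-defensin genes Defa26, Gm15284, Defa17 and AY761184. Within the 6 libraries high in Defa24 their r with it was 0.88, 0.83, 0.89 and 0.81 in that order. These 6 were among the 10 used to rank them, so these values only describe the picked genes. In the same 6 libraries the median r of Defa24 was 0.66 with the 14 other alpha-defensins (−0.15 to 0.94). Of these, 6 exceeded 0.8, against 310 of the 16948 other genes tested. The Paneth genes that are not defensins were mixed. In the same 6 libraries r was 0.92 for Pnliprp2, 0.84 for Clps, 0.81 for Lyz1 and 0.73 for Ang4. It was 0.40 for Habp2, 0.08 for Mmp7, −0.06 for Sox9 and −0.38 for Mptx2. With the 17 pan-epithelial markers the median r was −0.71 (−0.94 to −0.53). Of the 6 libraries pMCAO 5 was highest in Defa24 (278 CPM) and lowest in summed pan-epithelial markers (165 CPM, against at least 531 CPM). The r without pMCAO 5 was not computed. Gm15284, for example, was at 131, 3.65, 81.0, 8.74 and 39.6 CPM in sham and at 92.5, 4.09, 208, 3.20 and 317 CPM after pMCAO. Of the aligned coding positions of Defa24, 95.7% were identical in Defa17, 89.2% in Defa26 and 62.8% in AY761184. The part of reads assigned to the wrong defensin in this likeness was not tested.

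**Figure D5:**
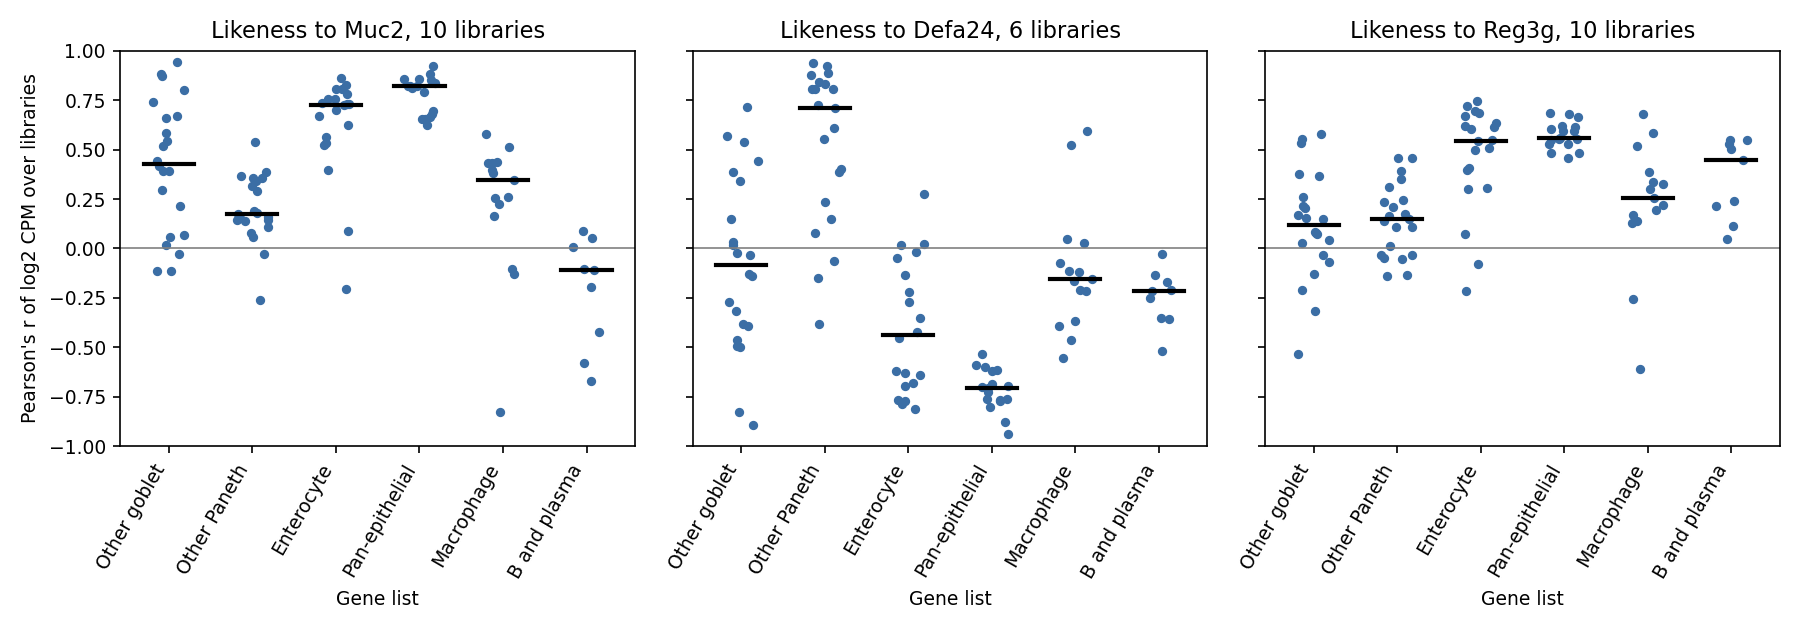
Pearson's r of log2 CPM between Muc2 (left, 10 libraries), Defa24 (middle, the 6 libraries with more than 10 CPM) or Reg3g (right, 10 libraries) and each gene of 6 marker lists. Points are genes and black bars are list medians. The pan-epithelial median is 0.82 for Muc2, −0.71 for Defa24 and 0.56 for Reg3g, and the other Paneth genes stand highest for Defa24. Of the 6 libraries in the middle panel, pMCAO 5 was highest in Defa24 and lowest in summed pan-epithelial markers.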

How the data were processed

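RNA of sorted lamina propria macrophages was sequenced as paired reads of 100 bases from 5 sham and 5 pMCAO libraries. The deposited table gives read counts for each gene as whole numbers. The submitters' processing notes name STAR, featureCounts, limma and GRCm38; their roles, the annotation and strandedness are not given in the sources used here. Each listed gene had at least 10 counts in at least 2 libraries. The authors' deposited CPM, log2 fold changes, mean log2 expression, p-values and FDR were not used, since the last 4 hold their own comparison.

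From the counts, filterByExpr kept 16949 genes, which were scaled by TMM and compared by edgeR 4.0.16 (quasi-likelihood test, R 4.3.3), with no covariate. Scores and correlations used log2 CPM with a prior count of 2. Permutation tests were two-sided, with 100000 resamples for 10 libraries and exact enumeration for 6. TPM used GENCODE M21 exon lengths. The alternatives were DESeq2 1.42.0, limma-voom (limma 3.58.1), other scalings, filters, prior counts, a replicate block and fits without single libraries, both pools or both libraries high in Xist.

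The members and lists were chosen with earlier results of these data known. Named genes are the members, each list's markers with the smallest and largest fold change or that define the cell type, and the 5 genes most like Muc2, Defa24 and Reg3g, of which 2 are not reported here. The labels call the libraries biological replicates without naming animals, so p-values measure only the spread between these libraries. The lowest chi-square per degree of freedom between any 2 libraries was 42.7, so none was a repeat.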

Additional observations from a re-analysis of the deposited data

How the results depend on the processing

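The count of members called was 0 under all 20 alternatives. The count over all genes was 0 under each alternative except DESeq2, which called 2. The log2 fold changes of Agr2 and Defa24 kept their sign under all 19 alternatives each, and those of the other 8 members turned in 20 of their fits. In limma-voom Muc2 was at −0.46, Tff3 at −0.76, Fcgbp at −0.49, Zg16 at −0.74 and Itln1 at −0.88. Spink4 was at 0.039 without both libraries high in Xist. Without single libraries Muc2 ranged from −0.75 to 0.72, Tff3 from −1.23 to 0.48, Fcgbp from −0.82 to 0.52, Zg16 from −1.17 to 0.83, Reg3g from −1.94 to 0.32, Reg3b from −2.59 to 0.11 and Itln1 from −0.29 to 0.60 (−0.02 without sham 2 and −0.02 without sham 4). Apart from the libraries named, the cause was not tested.

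With the replicate number as a block, the log2 fold changes were −0.47 for Muc2, −0.81 for Tff3, −0.52 for Fcgbp, −0.95 for Zg16 and −0.28 for Itln1, and 0 genes were called. Libraries with the same number had correlated deviations of 0.11, 0.46, −0.02, 0.34 and 0.45 for replicates 1 to 5. The labels name nothing that a number shares, so the main fit did not pair libraries by number. Defa24 and Itln1 did split by number in both groups, with 1, 3 and 5 high and 2 and 4 low. As a hint from the data, not from the design, 7 of 10 libraries correlated best with their own number. The block lowered the SE of Defa24 from 1.06 to 0.42 and that of Itln1 from 1.09 to 0.35. This drop follows from their split by number and adds no separate evidence. The block raised the SE of Zg16 from 0.91 to 1.12, of Tff3 from 0.75 to 0.79 and of Agr2 from 0.79 to 0.80. For the remaining members it lowered the SE.

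The goblet score difference stayed below 0 under its 15 alternatives, between −1.45 and −0.35. The Paneth difference was above 0 under 4 of 16, from −0.91 to 0.21, and the goblet minus Paneth difference under 3 of 16, from −0.93 to 0.14, each within 1 SD of its value with all libraries. Of the 28 pairs without Defa24 and Itln1 15 passed, with adjustment over the 45. Over all 45 pairs 16 passed, and 12 to 17 did under the alternatives. The 16 hold Defa24 with Itln1, whose pass is not read as a result because their libraries form 2 clusters. The median total was lower after pMCAO (11605371 counts) than in sham (33913980 counts), so low counts in the shallower libraries are less precise. The groups overlapped in depth, and pMCAO 2 (28672285) and pMCAO 5 (27004036) were deeper than sham 4 (18894151).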
